A study of Mus musculus with 18 samples.

Results

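The mucin-type and terminal glycosyltransferases described here are the Golgi enzymes that start, branch, extend and cap the sugar chains of mucins and other glycoproteins and glycolipids. They were chosen by symbol: every gene of the Galnt, C1galt, Gcnt, B3gnt, B3galt, B4galt, B4galnt, St3gal, St6gal and Fut families with a number in its name, except Galnt17. Of 16321 genes in the deposited table, 61 symbols carried such a name, and 60 remained without Galnt17. The fucosyltransferase Fut2 is described apart, so counts of members are over the other 59, all of which passed the filter on low counts. The tissue was distal colon of 18 BALB/c mice. Il10KO mice, which lack the anti-inflammatory cytokine interleukin 10, were sampled at 6, 8, 10, 12 and 14 weeks of age, and wild-type (WT) mice at 6 weeks only, with 3 mice in each of the 6 groups. No WT mice older than 6 weeks were analysed, so age and disease course cannot be told apart in the comparisons between ages. Each library came from a piece of whole tissue, and fewer cells of a type and less RNA per cell cannot be told apart in such RNA.

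Mucin-type O-glycans begin when a polypeptide GalNAc-transferase (a Galnt enzyme) attaches N-acetylgalactosamine (GalNAc) to a serine or threonine of the protein. Core enzymes then add galactose (core 1) or N-acetylglucosamine (core 2 branches and core 3), and other transferases lengthen the chain with alternating N-acetylglucosamine (GlcNAc) and galactose. Sialic acid, fucose or a further GalNAc ends the chain. In the colon these chains coat the mucus gel and the surface of the epithelium, where terminal fucose and sialic acid are contacts and nutrients for gut bacteria. Fut2 places the terminal fucose of the H antigen on galactose.

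The libraries held between 26495521 and 35497101 estimated counts. The label's RNA integrity number (RIN) was 8.4 to 9.3 in 16 libraries, but 6.5 and 5.8 in replicates 2 and 3 of week 14. Those replicates stood apart in their TMM scaling factors (0.58 and 0.68, against 0.87 to 1.19 elsewhere), while replicate 1 of week 14 had a RIN of 9. Lipocalin, an inflammation marker recorded in the labels in ng/g, was 2044.0, 3758.3 and 4288.8 in the 3 week 14 mice, against 2.27 to 4.72 in Il10KO mice at week 6. It was 102.2 to 135.5 at week 8, 339.5 to 554.3 at week 10 and 444.2 to 2574.2 at week 12. Pan-epithelial markers summed to 10607.7 to 14906.8 counts scaled to library size (CPM) at week 10, against 12481.7 to 14850.2 CPM at week 6, and 0 of 10 passed the test. Colonocyte markers summed to 3877.3 to 6898.3 CPM at week 10, against 7830.5 to 8128.5 CPM at week 6, without overlap, and 2 of 10 rose and 2 fell. Across 16001 genes, Spearman's correlation between transcript length and the log2 fold change was -0.41 at week 10 and -0.59 at week 14, each against week 6. Members were longer than most genes, with a median length of 3120 bases against 2450 over all genes. The part of these differences in the results below was not tested.

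Levels per length were compared in TPM (transcript abundance scaled to the library total), an estimate that corrects for transcript length. In Il10KO colon at week 6, 31 of the 60 genes averaged at least 10 TPM, 21 lay between 1 and 10 TPM, and 8 were lower. The 7 genes that lay below 1 TPM on average in every group were B3galt1, B3galt2, B3gnt6, Fut1, Galnt13, Galnt9 and Gcnt4. The 5 most abundant genes, B3gnt7, St3gal6, B3galt5, B4galt1 and B3gnt3, made up 46.2% of the summed TPM of the family. B3gnt7, a GlcNAc-transferase of keratan-sulfate-type chains, ranked first with 485.8, 490.7 and 481.3 TPM at week 6 in Il10KO mice, against 314.1, 388.6 and 399.7 TPM in WT mice. St3gal6, which caps galactose with sialic acid, followed with 173.8, 146.4 and 161.5 TPM in Il10KO mice, against 166.9, 140.0 and 185.1 TPM in WT mice. B3galt5, which adds galactose in type 1 chains, had 126.6, 143.1 and 136.3 TPM in Il10KO mice, against 95.1 ± 5.54 TPM in WT mice (SD, n = 3). B3galt5 was higher in each Il10KO library than in each WT library, St3gal6 was not, and B4galt1 came next with 98.7 to 114.7 TPM. By mean TPM, Fut2 ranked 10 at week 6 and 1 at week 10.

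**Figure D1:**
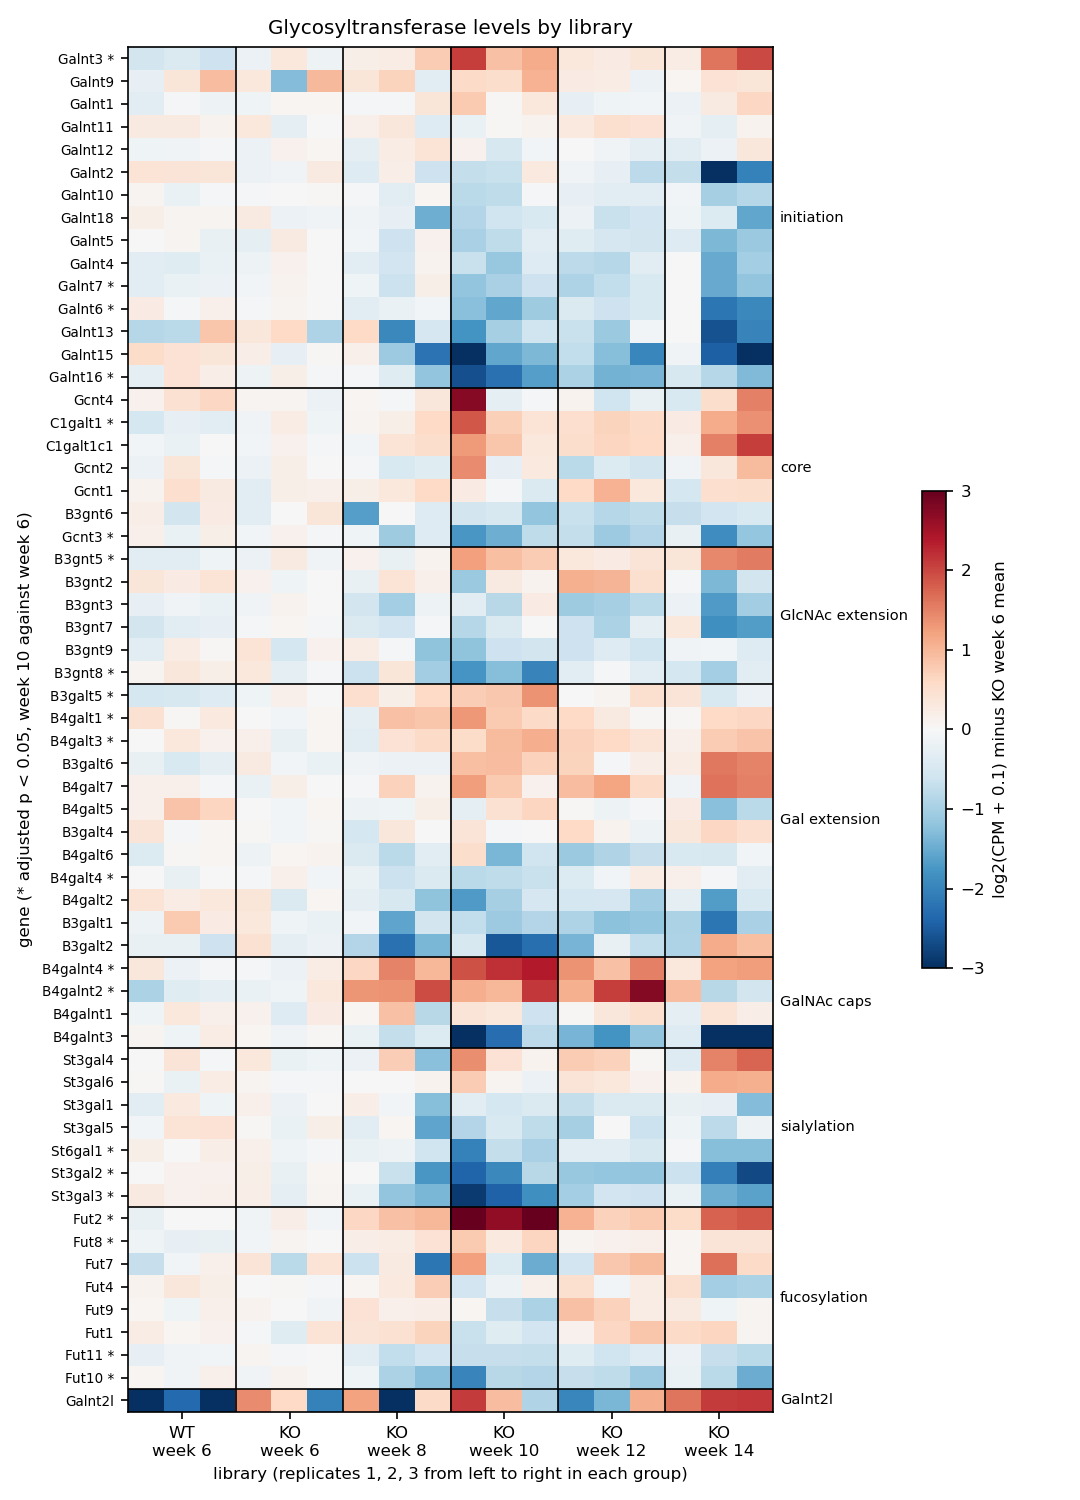
Level of each gene (rows, grouped by role) in each of the 18 libraries (columns), as log2(CPM + 0.1) minus the mean of Il10KO (KO) week 6. Red is higher and blue lower, asterisks mark genes that passed the test at week 10 against week 6, and replicates 2 and 3 of week 14 differ from replicate 1.

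The first comparison asked whether loss of Il10 was accompanied by different transferase levels at 6 weeks of age. Lipocalin was then lower than at any later age, at 2.27 to 4.72 ng/g in Il10KO mice, against 0.592 ng/g in the only WT mouse with a value. All WT mice came from cage G, which held no Il10KO mouse, and the Il10KO mice of this age came from cages A, B and F. Genotype and cage therefore cannot be told apart here. In edgeR's quasi-likelihood test with Benjamini-Hochberg adjustment over all 16300 genes tested, 0 of the 59 members and 0.0% of all genes differed between Il10KO and WT colon. At an unadjusted p under 0.05 there was 1 member, Galnt2l, and 394 genes (2.42%) in all, and the groups did not overlap for 18 members (30.5%), where they did not for 25.4% of all genes. DESeq2 called 0 members, and limma-voom with a weight for each group called 1 higher (with 2.17% of all genes called and 1.39% higher), B3galt5, with a log2 fold change of 0.47. B3galt5 had 420.8, 510.2 and 458.2 CPM in Il10KO mice, against 319.6, 329.1 and 352.2 CPM in WT mice, and the groups did not overlap. Fut2 had 73.0, 91.1 and 74.4 CPM in Il10KO mice, against 67.9, 80.0 and 80.3 CPM in WT mice, a log2 fold change of 0.06 ± 0.28 (SE). The Fut2 values overlapped, and the sign of this fold change turned to -0.01 without WT replicate 1 and to -0.05 without Il10KO replicate 2. The members' median log2 fold change was -0.04, against -0.01 over all genes.

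Galnt2l could not be read as a gene of its own. In all 18 libraries its counts equalled, within 1 count, those of 1 transcript on chromosome 8, chr8:119910841-124345722 on the plus strand of GRCm38, for which GENCODE gives the name Gm20388. Of its 16 exons, 15 lay within the main transcript of Galnt2 (chr8:124231391-124345724, plus strand), and 97.5% of its bases were shared. Its level was 14.3 ± 11.9 CPM in Il10KO mice at week 6, against 0.712 ± 0.962 CPM in WT mice (SD, n = 3 each), where 1 library was at 0. The sum of Galnt2 and Galnt2l was far steadier, at 75.7, 66.6 and 69.4 CPM in Il10KO mice, against 74.1, 75.2 and 72.2 CPM in WT mice. Values of both symbols are therefore uncertain, because reads of the shared exons could be assigned to either.

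At week 8, 0 members passed edgeR's test against week 6, where 0.0675% of all genes did (11 genes, all higher). DESeq2 also called 0 members, and 5 members (8.47%, with 7.03% of all genes) had an unadjusted p under 0.05. These were B4galnt4, B4galnt2, Fut11, B3galt2 and St3gal3. B4galnt2, which adds the terminal GalNAc of the Sda antigen to sialylated galactose, had 48.0, 48.7 and 75.4 CPM at week 8, against 16.7, 17.7 and 24.0 CPM at week 6. Each week 8 library was above each week 6 library, but the log2 fold change of 1.56 ± 0.48 (SE) had an adjusted p of 0.341 in edgeR. St3gal3 overlapped between the ages, with 35.2, 17.6 and 15.4 CPM at week 8, against 46.4, 32.8 and 42.7 CPM at week 6. The members' median log2 fold change was -0.18, against 0.03 over all genes.

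In edgeR's fit of all libraries, week 10 had the most members called of the ages set against week 6. That order did not hold in every fit: week 12 had more with the compared groups alone (30 against 24) and with voom weights (32 against 28), and week 14 had more on the TPM scale (39 against 12). The share of all genes called moved as well. At week 12 it was 59.0% with the compared groups alone and 61.9% with voom weights, and for week 10 it is not given in these fits. On the TPM scale it was 60.0% at week 14 and 19.9% at week 10. Fut2 was the largest riser of the family, several sialyltransferases and polypeptide GalNAc-transferases fell, and in most role classes some members rose while others fell. Of the 59 members without Fut2, 20 (33.9%) passed edgeR's test against week 6, where 24.0% of all genes did. Of these, 9 rose (15.3%, with 14.6% of all genes rising) and 11 fell (18.6%, with 9.48% of all genes falling). The week 10 and week 6 values did not overlap for any of the 20, nor for 35 members (59.3%) in all, where 57.8% of all genes were separated in this way. The members' median log2 fold change was -0.27, against 0.01 over all genes. On the TPM scale, where the median of all genes lay at -0.34, limma-trend called 0 members higher and 12 lower (20.3%, with 13.9% of all genes lower and 19.9% called) with a pseudocount of 1. The 20 calls became 4, 7 and 5 without replicates 1, 2 and 3 of week 6, and 8, 10 and 24 without replicates 1, 2 and 3 of week 10. The share of all genes called in these fits is not given here, so these counts alone do not describe the family. None of the 20 genes changed sign under any of the alternatives, and the calls of B3gnt8, Galnt16 and St3gal3, like that of Fut2, stood under each of them.

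**Figure D2:**
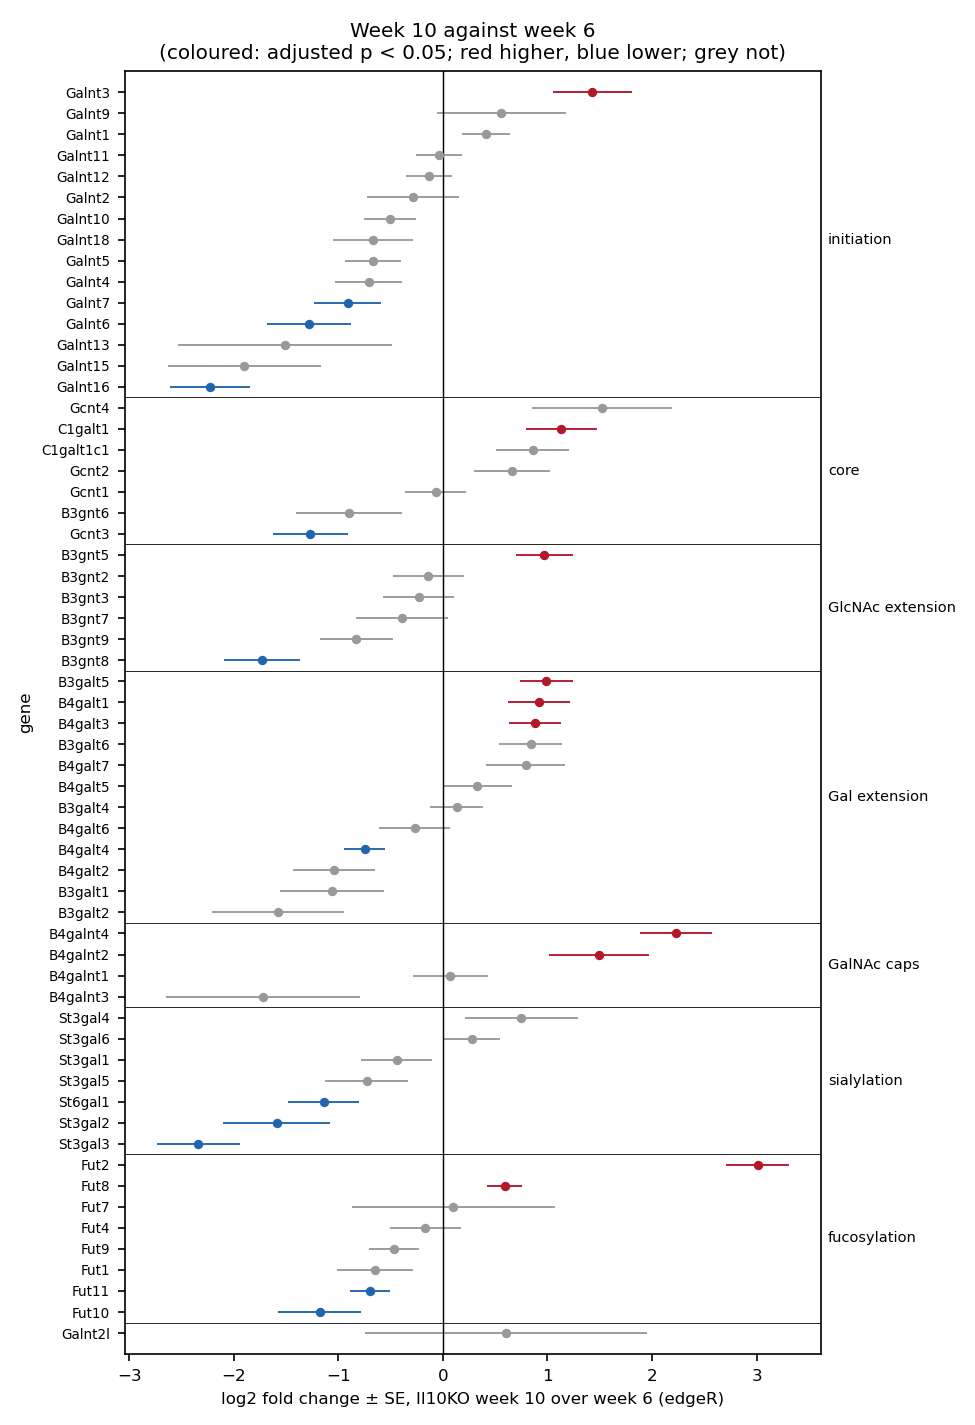
Log2 fold change (x axis, edgeR) of each gene at Il10KO week 10 over week 6, with the standard error as bars and 3 mice per group. Coloured points passed an adjusted p of 0.05 over all genes: Fut2 and 9 members to the right, 11 members to the left.

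Fut2 (chr7:45648591-45666394, minus strand) had 67.9, 80.0 and 80.3 CPM in WT colon at week 6, and 73.0, 91.1 and 74.4 CPM in Il10KO colon at week 6. In Il10KO colon it had 120.9, 145.0 and 158.8 CPM at week 8, and 660.8, 503.6 and 758.5 CPM at week 10. It then had 163.1, 127.7 and 137.1 CPM at week 12, and 115.3, 271.8 and 287.8 CPM at week 14. Every library from week 8 on was above every week 6 library, and the 3 week 10 libraries stood above all others. The log2 fold change was 3.01 ± 0.30 (SE) at week 10 (640.9 ± 128.6 CPM, against 79.5 ± 10.1 CPM at week 6, SD, n = 3 each), with an adjusted p of 0.00036 in edgeR. It ranged from 2.25 to 3.16 over the alternatives, all of which kept the call. The values of 0.83 ± 0.28 at week 8 and 0.84 ± 0.28 at week 12 did not pass (adjusted p of 0.456 and 0.0972 in edgeR). Week 8 passed in limma-voom with a weight per group (adjusted p of 0.0442). Week 12 passed in 5 of the 14 alternatives that left out no single library, with adjusted p from 0.000153 to 0.82 over the 14: DESeq2, RIN as a covariate, the compared groups alone, voom weights and the fit without the libraries of low RIN. Its value was 0.10 on the TPM scale. Week 12 was lower than week 10 by a log2 fold change of -2.17 ± 0.29, with an adjusted p of 0.011 in edgeR. That call was lost without replicate 3 of week 10, or replicate 2 or 3 of week 12, with cage as a factor (-2.06, adjusted p of 0.117) and with the compared groups alone (-2.18). The log2 fold change ranged from -2.31 to -2.03 with any 1 library left out. Both protein-coding transcripts of Fut2 above 1 TPM were higher at week 10, with 221.0 ± 88.5 and 91.0 ± 56.2 TPM, against 38.8 ± 3.54 and 21.2 ± 3.16 TPM at week 6 (SD, n = 3 each).

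**Figure D3:**
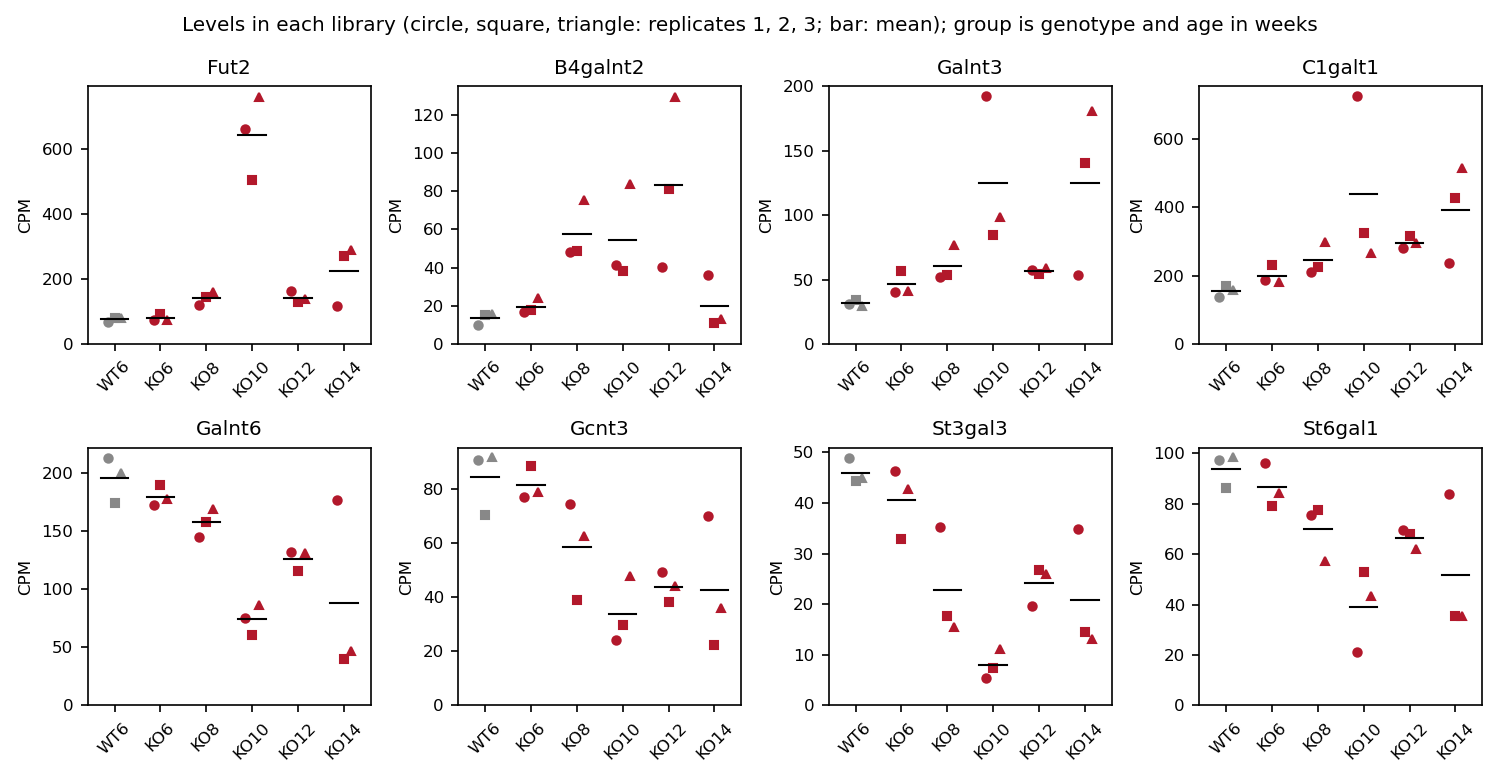
TMM-scaled CPM (y axes, from 0) of 8 genes in each library, by group (WT at week 6 in grey, Il10KO at weeks 6 to 14 in red), with bars at group means of 3 mice. Fut2 peaks at week 10 (503.6 to 758.5 CPM), St3gal3 is lowest there (5.42 to 11.2 CPM), and week 14 replicate 1 (circle) lies nearer to week 6 than replicates 2 and 3 for Galnt3, Galnt6 and St3gal3.

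Among the 15 initiating GalNAc-transferases, 1 rose and 3 fell at week 10, where 14.6% of all genes rose and 9.48% fell. Their median log2 fold change was -0.67. Galnt3 (chr2:66082766-66124994, minus strand), also known for protecting the phosphate-regulating hormone FGF23 from cleavage, rose. It had 192.2, 84.7 and 98.2 CPM at week 10, against 40.4, 57.0 and 41.4 CPM at week 6. Each week 10 library was above all week 6 libraries, replicate 1 by most, and the log2 fold change was 1.43 ± 0.38 (SE, adjusted p of 0.0189 in edgeR). The call was lost without replicate 1 of week 10 (0.98), and without replicate 1 or 3 of week 6 (1.34 and 1.36). Galnt6 (chr15:100691813-100729376, minus strand) was the most abundant of the class in TPM at week 6 (73.5 ± 2.22 TPM, SD, n = 3), and it fell. It had 75.3, 60.7 and 86.0 CPM at week 10, against 172.4, 189.6 and 177.3 CPM at week 6, a log2 fold change of -1.28 ± 0.40 (SE, adjusted p of 0.0348). Each week 10 value lay below 90 CPM and each week 6 value above 170 CPM, but the call was lost on leaving out week 6 replicate 1, 2 or 3, or week 10 replicate 1 or 2, with values from -1.31 to -1.16. Galnt16 fell most, to 0.653, 0.887 and 1.38 CPM at week 10, against 4.13, 5.18 and 4.48 CPM at week 6 (log2 fold change -2.23 ± 0.38 SE, adjusted p of 0.00351). Galnt7, which prefers peptides that already carry GalNAc, was past the threshold by little, with a log2 fold change of -0.91 and an adjusted p of 0.05 in edgeR. The other 11 did not pass, among them the broadly expressed Galnt1 (0.41) and Galnt2 (-0.29, uncertain as above). Galnt4 (-0.71) lies within another gene, Poc1b, and its reads may be split with it.

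Of the 7 core genes, 1 rose and 1 fell, where 14.6% of all genes rose and 9.48% fell. C1galt1 (chr6:7844842-7875687, plus strand), the core 1 synthase that makes the T antigen, rose to 725.7, 324.6 and 265.4 CPM at week 10, against 185.7, 232.0 and 181.4 CPM at week 6. All 3 week 10 libraries were above those of week 6, and replicate 1 stood far above the other replicates. The log2 fold change was 1.13 ± 0.34 (SE, adjusted p of 0.0311 in edgeR), but it was 0.56 without week 10 replicate 1, where the call was lost, as it was on leaving out week 6 replicate 1, 2 or 3 (1.07 to 1.26). Its chaperone C1galt1c1 (Cosmc), without which the core 1 synthase does not fold, had 85.4, 63.6 and 44.1 CPM at week 10, against 33.6, 38.9 and 34.1 CPM at week 6, and did not pass. Gcnt3 (chr9:70031496-70038088, minus strand), the mucin-type enzyme for core 2 and core 4 branches, fell. It had 24.1, 29.6 and 47.8 CPM at week 10, against 77.2, 88.6 and 78.8 CPM at week 6, without overlap. Its log2 fold change was -1.27 ± 0.36 (SE, adjusted p of 0.026), and the call was lost on leaving out week 6 replicate 1, 2 or 3 (-1.31 to -1.21), or week 10 replicate 1 (-1.08) or 2 (-1.18). Gcnt1, the broadly expressed core 2 enzyme, had a log2 fold change of -0.07 and did not pass, nor did the core 3 synthase B3gnt6, which stayed under 1 CPM in every library. The median of the 7 core genes was 0.66 in counts, but -0.08 on the TPM scale.

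In the class that extends chains with GlcNAc, 1 of 6 rose and 1 fell, where 14.6% of all genes rose and 9.48% fell. B3gnt5, the enzyme that starts lacto-series glycolipids, had 378.0, 302.9 and 274.6 CPM at week 10, against 141.7, 195.6 and 150.4 CPM at week 6 (log2 fold change 0.97 ± 0.27 SE, adjusted p of 0.0225 in edgeR). That call was lost without week 10 replicate 1 (0.83), or without week 6 replicate 1 (0.88) or 3 (0.92). B3gnt8, a minor enzyme of poly-N-acetyllactosamine chains, had 1.38, 1.98 and 1.14 CPM at week 10, against 6.12, 4.08 and 4.73 CPM at week 6 (log2 fold change -1.73 ± 0.36 SE, adjusted p of 0.00849). The groups of both genes were separate, although B3gnt8 has an annotated transcript with a retained intron that held 22.8 to 69.7% of its TPM at week 10 and 24.7 to 49.1% at week 6. The abundant B3gnt7 did not pass, with 441.7, 587.7 and 783.8 CPM at week 10, against 778.8, 832.6 and 771.7 CPM at week 6, which overlapped.

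Of the 12 galactosyltransferases, 3 rose and 1 fell, where 14.6% of all genes rose and 9.48% fell. Their median log2 fold change was 0.23 in counts and -0.32 on the TPM scale. B3galt5 (chr16:96235801-96319859, plus strand) had 769.9, 806.2 and 1180.7 CPM at week 10, against 420.8, 510.2 and 458.2 CPM at week 6. B4galt1 (chr4:40804602-40854005, minus strand), the main enzyme of N-acetyllactosamine, had 701.6, 492.6 and 430.0 CPM at week 10, against 290.7, 270.9 and 298.5 CPM at week 6. Neither gene's groups overlapped, and the log2 fold changes were 0.99 ± 0.25 and 0.92 ± 0.30 (SE, adjusted p of 0.0169 and 0.0385 in edgeR). The B3galt5 call was lost without week 6 replicate 1 (0.92) or 3 (0.98), and that of B4galt1 in 5 of the 6 fits with a library left out (all but week 10 replicate 3), with values from 0.69 to 0.98. B4galt3, a related enzyme, rose by 0.88 ± 0.25, and B4galt4, which also acts on sulfated chains, fell by 0.75 ± 0.20 on the log2 scale (adjusted p of 0.0252 and 0.0189). Each of these calls was lost without 4 of the 6 libraries, at 0.78 to 0.96 for B4galt3 (week 6 replicates 1, 2 and 3, week 10 replicate 2) and -0.78 to -0.68 for B4galt4 (week 6 replicates 1 and 2, week 10 replicates 1 and 2). B3galt6 and B4galt7, which build the linker of proteoglycans rather than mucin chains, had log2 fold changes of 0.84 and 0.79 and did not pass.

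Of the 4 GalNAc-capping genes, 2 rose, where 14.6% of all genes did. B4galnt4, which caps GlcNAc with GalNAc, had 6.61, 8.06 and 9.24 CPM at week 10, against 1.62, 1.49 and 1.97 CPM at week 6. The groups were far apart at a low level, with a log2 fold change of 2.23 ± 0.34 (SE, adjusted p of 0.00212 in edgeR), a call kept with any 1 library left out but lost on the TPM scale. B4galnt2 (chr11:95865943-95914891, minus strand) had 41.3, 38.3 and 83.8 CPM at week 10, against 16.7, 17.7 and 24.0 CPM at week 6. Its log2 fold change of 1.49 ± 0.48 (SE, adjusted p of 0.0388) ranged from 1.03 to 1.68 and lost its call without any of the 6 libraries in turn. B4galnt3, a paralog of B4galnt4 and the most abundant of the class in TPM at week 6, had 16.6, 28.6 and 81.0 CPM at week 10, against 144.4, 129.6 and 142.6 CPM at week 6. All its week 10 values were lower, but they differed widely, and the log2 fold change of -1.72 ± 0.93 (SE) did not pass.

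Sialyltransferases gave 3 falls and no rise among 7 genes, where 9.48% of all genes fell and 14.6% rose. Their median log2 fold change was -0.73 both in counts and on the TPM scale. St3gal3 (chr4:117932154-118134914, minus strand), which sialylates galactose of type 1 and type 2 chains, had 5.42, 7.37 and 11.2 CPM at week 10, against 46.4, 32.8 and 42.7 CPM at week 6. Every week 10 library lay below every other library of the series, and the log2 fold change was -2.34 ± 0.40 (SE, adjusted p of 0.00339 in edgeR). Its 2 main coding transcripts were both lower, with 2.01 ± 1.45 and 1.47 ± 0.85 TPM at week 10, against 13.8 ± 3.29 and 11.8 ± 2.29 TPM at week 6 (SD, n = 3 each). St6gal1 (chr16:23224740-23360350, plus strand), which adds sialic acid in the linkage read by the B cell lectin CD22, had 21.1, 52.9 and 43.6 CPM at week 10, against 96.4, 79.2 and 84.2 CPM at week 6. The groups were separate, at a log2 fold change of -1.14 ± 0.34 (SE, adjusted p of 0.029), and the call was lost on leaving out week 6 replicate 1, 2 or 3 (-1.20 to -1.06), or week 10 replicate 1 (-0.84). St3gal2, which acts on core 1 and gangliosides, was the third to fall (-1.59), but the call was lost in 5 of the 6 fits with a library left out (all but week 10 replicate 3), at -1.7 to -1.3 where it was lost. The abundant St3gal6 did not pass, with 290.5, 180.3 and 151.9 CPM at week 10, against 180.0, 163.8 and 167.4 CPM at week 6. Markers of other cells were compared between the same groups. B cell markers summed to 22.3 to 264.6 CPM at week 10, a range that spanned the 78.4 to 122.6 CPM of week 6, with 0 of 6 past the test. Of the fibroblast markers, 5 of 7 fell, with a sum of 801.2 to 1274.4 CPM at week 10, against 2171.7 to 3247.8 CPM at week 6. Of the markers of enteric neurons and glia, 5 of 8 fell, with 17.1 to 31.4 CPM at week 10, against 65.0 to 67.0 CPM at week 6, and no marker of these lists was at 0 throughout a group. The part of these cells in the lower sialyltransferase and Galnt16 levels was not tested.

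Besides Fut2, 1 of the 7 other fucosyltransferases rose and 2 fell, where 14.6% of all genes rose and 9.48% fell. Fut8, which fucosylates the core of N-glycans, had 219.8, 156.8 and 200.4 CPM at week 10, against 119.9, 135.3 and 127.2 CPM at week 6. It was higher in each week 10 library, with a log2 fold change of 0.59 ± 0.17 (SE, adjusted p of 0.0279 in edgeR), a call lost on leaving out week 6 replicate 1, 2 or 3 (0.55 to 0.64), or week 10 replicate 1 (0.49). Fut11 had 16.8, 16.8 and 16.5 CPM at week 10, against 28.8, 25.9 and 26.8 CPM at week 6 (log2 fold change -0.70 ± 0.19 SE, adjusted p of 0.0199), and only the fit without week 10 replicate 3 kept the call among those with a library left out (-0.74 to -0.66). Fut10 was the other that fell (-1.18), and it too kept its call only without week 10 replicate 3, with -1.37 to -0.89 where it was lost. Fut4 and Fut9, which fucosylate GlcNAc to form Lewis x, did not pass (-0.17 and -0.47), and neither did Fut1 (-0.65), the other H antigen enzyme. Fut7, the selectin-ligand enzyme of leukocytes, stayed under 2 CPM in every library, while 6 of 8 neutrophil markers rose and summed to 840.7 to 6132.7 CPM at week 10, against 160.8 to 198.6 CPM at week 6.

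Ratios of genes within a library do not depend on how libraries are scaled to each other, and they show unequal change, not which gene moved. The Fut2 share of all Fut TPM was 27.0 to 30.7% in WT colon at week 6, and 30.9 to 34.4% in Il10KO colon at week 6, 38.4 to 41.4% at week 8, 71.0 to 77.6% at week 10 and 40.7 to 41.3% at week 12. At week 14 it was 36.5% in replicate 1, and 50.1 and 51.0% in replicates 2 and 3. Week 10 thus overlapped no other age. The ratio of Galnt3 to Galnt6 TPM was 0.194 to 0.242 in WT colon, and 0.254 to 0.327, 0.436 to 0.538, 1.38 to 2.69 and 0.574 to 0.632 in Il10KO colon at weeks 6, 8, 10 and 12. It was 0.36, 3.93 and 4.16 in the week 14 libraries. The ratio of C1galt1 to Gcnt3 was 3.83 to 20.9 at week 10, against 1.59 to 1.81 at week 6. St3gal3 made up 1.64 to 4.22% of sialyltransferase TPM at week 10, against 10.7 to 13.0% at week 6, and St3gal6 80.5 to 88.3%, against 66.2 to 69.0%. Fucosyltransferases, Fut2 included, took 21.1 to 24.9% of the TPM of the 60 genes at week 10, against 8.78 to 9.63% at week 6, and initiating transferases 11.1 to 12.8%, against 17.9 to 19.3%. With 3 mice against 3, an exact permutation test of any such ratio cannot go below a p of 0.1, so these separations are given without a test.

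**Figure D4:**
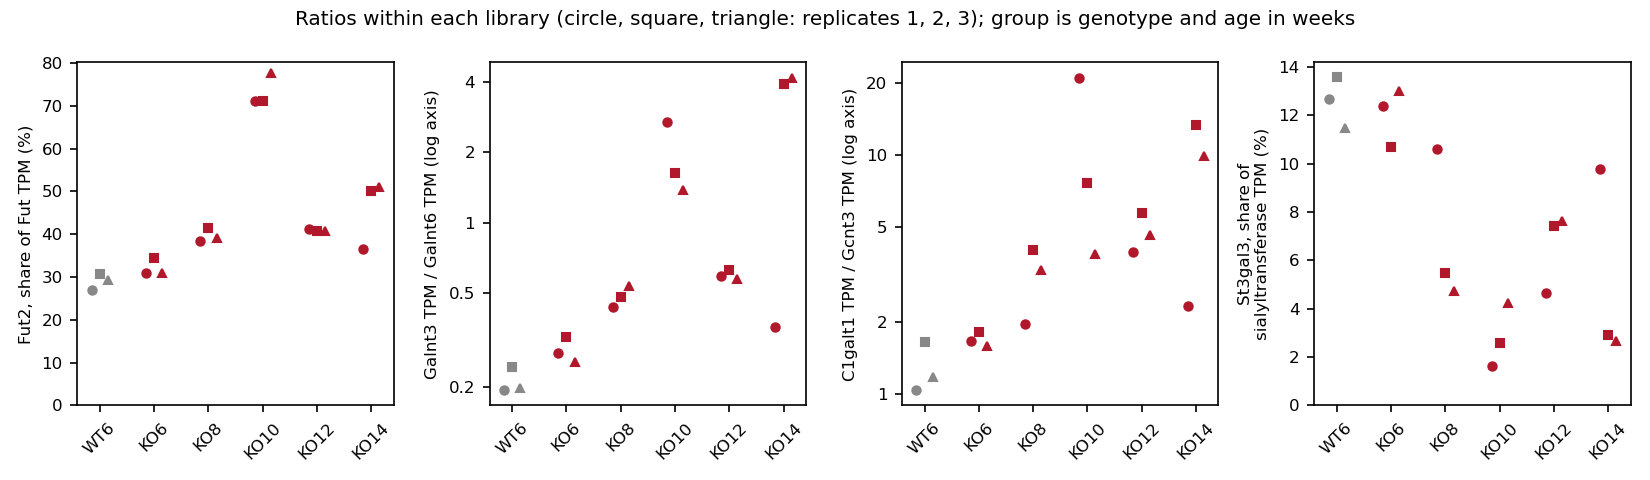
Within-library shares and ratios of TPM (y axes, 2 of them logarithmic) by group, 1 point per library, WT in grey and Il10KO in red. The Fut2 share is 71.0 to 77.6% at week 10 and at most 51.0% elsewhere, and week 14 replicate 1 lies apart from replicates 2 and 3 in every panel.

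Windows from 250 bases before to 50 bases after an annotated start were found for 43 of the 60 genes in the RefSeq table for build GRCm38.p6, among them all 9 that rose and 8 of the 11 that fell at week 10. No window was available for Fut2 or for Gcnt3, so neither gene was searched. The motifs searched were 6, on both strands: the STAT motif TTCNNNGAA, the IRF motif (GAAA and GAAA spaced by NN), the NF-kB motif (GGGAN followed by TTTCC), the HIF motif TACGTG, the HNF4 motif CAAAGTCCA and the CDX motif TTTATGG. Over all 32817 windows they occurred in 8.29%, 3.43%, 0.411%, 3.23%, 0.475% and 2.75%. In the same order, 1, 0, 0, 2, 1 and 1 of the 43 member windows held them. Among the 17 windows of genes that changed at week 10, 1 gene that rose (B4galt1) held the STAT motif, 1 that fell (St6gal1) held the HIF motif, and no other match was found. Both are printed in full, 5′ to 3′ on the gene's strand, with the match in capitals, as the members whose results meet a motif. The B4galt1 window is chr4:40853935-40854234 (minus strand), with the match starting 99 bases before the start. The St6gal1 window is chr16:23225771-23226070 (plus strand), with the match, on the opposite strand, 211 bases before it.
B4galt1: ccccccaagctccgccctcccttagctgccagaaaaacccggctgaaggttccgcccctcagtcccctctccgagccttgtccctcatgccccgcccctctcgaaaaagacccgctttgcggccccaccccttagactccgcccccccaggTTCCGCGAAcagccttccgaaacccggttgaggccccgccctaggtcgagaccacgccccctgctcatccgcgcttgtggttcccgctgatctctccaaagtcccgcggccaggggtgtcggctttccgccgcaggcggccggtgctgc
St6gal1: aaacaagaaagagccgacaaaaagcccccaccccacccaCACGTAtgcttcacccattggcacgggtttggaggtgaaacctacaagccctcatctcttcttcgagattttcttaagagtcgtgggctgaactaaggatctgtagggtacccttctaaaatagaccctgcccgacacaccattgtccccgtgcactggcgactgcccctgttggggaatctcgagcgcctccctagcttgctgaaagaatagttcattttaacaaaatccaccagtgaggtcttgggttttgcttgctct
Guanine and cytosine made up a median of 67.3% of the bases in the windows of genes that rose and of 69.6% in those of genes that fell, against a median of 62.7% over all 43 member windows and of 52.7% over all windows. The ranges of genes that rose and fell overlapped. A match of letters is a description and not a binding site.

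At week 12, 1 member passed edgeR's test against week 6, where 1.85% of all genes did. This was B4galnt2, with 40.2, 81.0 and 129.2 CPM at week 12, against 16.7, 17.7 and 24.0 CPM at week 6. Its groups were separate, as were those of 33 members (55.9%) and of 65.6% of all genes. Its log2 fold change was 2.10 ± 0.49 (SE, adjusted p of 0.0442), and the call was lost without any 1 of the 6 libraries (1.65 to 2.43). The count differed widely between fits: it was 30 of 59 members (50.8%, with 59.0% of all genes called) when only weeks 6 and 12 entered the fit, and 32 (54.2%, with 61.9% of all genes) in limma-voom with a weight per group. In the smaller fit 9 members were higher (15.3%, with 29.5% of all genes) and 21 lower (35.6%, with 29.5% of all genes). There, St3gal3 (-0.74), Gcnt3 (-0.89), Galnt6 (-0.50) and B4galnt3 (-1.43) were called lower and C1galt1 (0.58) and B4galnt4 (1.31) higher, each with the sign of its week 10 value. Some other members called there had the opposite sign at week 10. Fut9, B3gnt2 and Gcnt1 were called higher at week 12, with -0.47, -0.14 and -0.07 at week 10. Gcnt2 was called lower, with 0.66 at week 10. Both ages are set against the same week 6 mice. The week 12 values of Galnt6 were 131.9, 115.9 and 130.8 CPM and those of St3gal3 averaged 24.2 ± 3.90 CPM (SD, n = 3), and for both genes they lay between those of weeks 10 and 6. Between week 12 and week 10, 0 members passed edgeR's test, where 0.448% of all genes did (0.209% higher and 0.239% lower). At an unadjusted p under 0.05 there were 18 members (30.5%, with 14.6% of all genes), and DESeq2 called 8 (13.6%, with 5.04% of all genes). St3gal3 had the largest difference of these 8, with a DESeq2 log2 fold change of 1.59 for week 12 over week 10.

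At week 14, 13 members (22.0%) passed edgeR's test against week 6, where 33.1% of all genes did. Of these, 8 were higher (13.6%, with 24.5% of all genes) and 5 lower (8.47%, with 8.56% of all genes). At an unadjusted p under 0.05 there were 24 members (40.7%, with 52.3% of all genes). The libraries of this age did not form a uniform group. Without replicate 1 the count was 34 (57.6%, with 69.5% of all genes), 11 higher and 23 lower. Without replicate 2 it was 3, without replicate 3 it was 2, and without week 6 replicates 1, 2 and 3 it was 5, 5 and 3. For these smaller counts the share of all genes called is not given, so they alone do not describe the family. Without the libraries with a RIN of 6.5 and 5.8 the count was 0. On the TPM scale, where the median of all genes lay at -0.74, 0 members were called higher and 39 lower (66.1%, with 54.6% of all genes lower). Neutrophil markers summed to between 194.4 and 16883.2 CPM in the 3 libraries, against 160.8 to 198.6 CPM at week 6.

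Of the 8 members called higher at week 14, B3gnt5 had the smallest p. It had 205.8, 436.4 and 474.6 CPM at week 14, against 141.7, 195.6 and 150.4 CPM at week 6, without overlap. The log2 fold change was 1.20 ± 0.27 (SE, adjusted p of 0.00642 in edgeR), but -0.22 on the TPM scale. C1galt1c1 had 39.3, 101.1 and 149.4 CPM at week 14, against 33.6, 38.9 and 34.1 CPM at week 6 (1.44 ± 0.36, adjusted p of 0.00904), and -0.04 on the TPM scale. Galnt3, with 53.4, 140.2 and 180.6 CPM at week 14, against 40.4, 57.0 and 41.4 CPM at week 6, overlapped through replicate 1 (1.43 ± 0.38, adjusted p of 0.0117), and had -0.02 on the TPM scale. C1galt1, B3galt6, B4galt7 and St3gal6 also turned negative on that scale, whereas B4galnt4 (1.01) kept its sign under all alternatives, with 0.09 on the TPM scale. The calls of B4galnt4, C1galt1, B4galt7 and St3gal6 were each kept in only 1 of the 6 fits with a library left out. Fut2 was 1.5 ± 0.29 (adjusted p of 0.00616 in edgeR), was 0.53 without the libraries of low RIN, and -0.23 on the TPM scale. Its call was lost in both, and also with the compared groups alone (1.52), a cage term (1.38) or RIN in the model (0.77). The calls of C1galt1c1 and Galnt3 were lost without week 14 replicate 3 (0.98 and 1.06), and that of Galnt3 also without week 6 replicate 1 (1.34) or 3 (1.36).

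**Figure D5:**
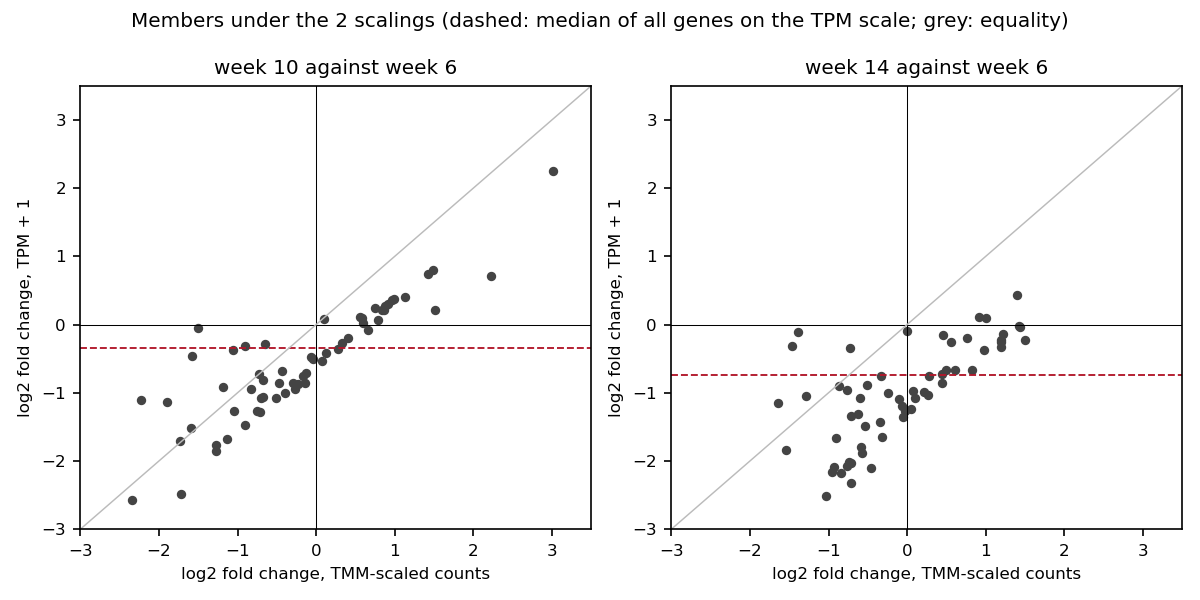
Log2 fold change of each of the 60 genes in TMM-scaled counts (x axis) and on the log2(TPM + 1) scale (y axis), for week 10 (left) and week 14 (right) against week 6. The dashed line marks the TPM-scale median of all genes (-0.34 and -0.74), and at week 14 nearly all genes lie below the grey line of equality; the exceptions are B3galt1, B3gnt6, Galnt13, Galnt15 and Galnt2.

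The 5 members called lower at week 14 were Galnt2, Galnt5, St3gal2, Fut11 and B3galt1. Galnt2 had 33.9, 6.49 and 13.5 CPM at week 14, against 49.6, 52.1 and 67.1 CPM at week 6 (-1.64 ± 0.45 SE, adjusted p of 0.0153 in edgeR). The sum of Galnt2 and Galnt2l was 63.5, 48.1 and 55.3 CPM at week 14, against 75.7, 66.6 and 69.4 CPM at week 6, so all 3 week 14 values lay below those of week 6, replicate 1 nearest to them. Without replicate 1 the Galnt2 value was -2.49, and the call was lost without week 14 replicate 2 (-1.25) or 3 (-1.47), or week 6 replicate 3 (-1.50). St3gal2, with -1.54 ± 0.51 (adjusted p of 0.0339), was -2.39 without replicate 1, and its call was lost without any other of the 6 libraries (-1.65 to -1.19). Galnt5 fell by 0.91, Fut11 by 0.53 and B3galt1 by 1.47 on the log2 scale. Their calls were lost in 4, 5 and 5 of the 6 fits with a library left out. B3galt1 was near the floor, with 0.422, 0.125 and 0.415 CPM at week 14, against 1.16, 0.822 and 0.783 CPM at week 6. Weeks 10 and 14 are set against the same week 6 mice, so their values are not independent of each other.

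In edgeR's test across the 5 ages of Il10KO mice, 14 members (23.7%) differed, where 27.4% of all genes did, and Fut2 differed with an adjusted p of 0.00106 (0.0805 with cage as a factor). At an unadjusted p under 0.05 there were 29 members (49.2%, with 46.7% of all genes). The smallest p-values were those of B4galnt4, Galnt16, B3gnt5 and St3gal3, all with an adjusted p of 0.0155. Fut9 was among the 14, with 71.4, 66.0 and 62.2 CPM at week 6, 89.8, 74.2 and 76.7 CPM at week 8, 68.9, 41.1 and 34.1 CPM at week 10, 121.4, 108.1 and 77.1 CPM at week 12 and 79.8, 60.5 and 70.2 CPM at week 14. Its 2 lowest values were thus at week 10 and its 2 highest at week 12, while the other values of those weeks overlapped other ages. B4galnt2 also differed (adjusted p of 0.0179), with its week 14 values of 36.3, 10.7 and 13.1 CPM below every value of weeks 8, 10 and 12. The count of 14 became 41 without week 14 replicate 1 (69.5%, with 71.6% of all genes), and 6 and 7 without replicates 2 and 3. It was 5, 8 and 6 without week 6 replicates 1, 2 and 3, and 9 without week 12 replicate 2. Apart from the fit without week 14 replicate 1, the share of all genes called is not given, so these counts alone do not describe the family.

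The enzymes that supply and modify the same chains were counted at week 10 against week 6. Among 26 genes of nucleotide sugar synthesis, 7 rose and 3 fell, where 14.6% of all genes rose and 9.48% fell. On the TPM scale 2 rose and 1 fell, and with unscaled library sizes 3 rose and none fell, and the median log2 fold change was 0.45 in counts and -0.10 on the TPM scale. Gmppb and Gmds, which lie on the path to GDP-mannose and GDP-fucose, the fucose donor, rose by 2.34 ± 0.46 and 0.98 ± 0.28 (SE, adjusted p of 0.006 and 0.0246 in edgeR). Amdhd2, which removes acetyl groups from GlcNAc phosphate, rose by 0.92 ± 0.25. The 3 that fell, named after their values were seen, were Ugdh (-1.41), Fcsk of fucose salvage (-1.21) and Gne, which starts sialic acid synthesis (-1.31, with 187.0 ± 62.6 CPM at week 10, against 465.2 ± 14.9 CPM at week 6, SD, n = 3 each).

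Among 11 Golgi transporters of nucleotide sugars, 3 rose and none fell, where 14.6% of all genes rose and 9.48% fell. The 3 were Slc35d1 (0.86), Slc35b1 (1.58) and Slc35d2 (2.01). The median of the 11 was 0.25 in counts, -0.45 on the TPM scale, where 1 rose, and -0.05 with unscaled library sizes, where 2 rose. Among 11 sulfotransferases of O-glycans, 4 fell and none rose, where 9.48% of all genes fell; 3 fell on the TPM scale and 2 with unscaled library sizes. Their median was -0.77 in counts and -0.89 on the TPM scale. The 4 were Gal3st1 (-0.77 ± 0.27), Chst7 (-1.66 ± 0.51), Gal3st2c, which has near-identical copies and is uncertain (-2.54 ± 0.79), and Chst5, at 0.01 CPM at week 10, against 0.393 CPM at week 6. Among 18 other glycosyltransferases, 1 rose and 2 fell, where 14.6% of all genes rose and 9.48% fell. The gastric-type mucin enzyme A4gnt (-2.79 ± 0.33) and the sialyltransferase St6galnac2 (-1.49 ± 0.29) fell, and the ganglioside enzyme St8sia1 rose (2.98 ± 0.48). Of 8 mucin backbones, 1 fell, Muc3a (-1.57 ± 0.45), where 9.48% of all genes fell. Of 11 sialidases, fucosidases and sialate esterases, 2 rose and 3 fell, where 14.6% of all genes rose and 9.48% fell. Those that fell included Neu2 (-1.91) and the esterase Siae (-1.41). The lysosomal Neu1 (0.88) and Fuca1 (0.97) rose, the last of these named after its values were seen, but none rose on the TPM scale or with unscaled library sizes. Of 10 goblet cell markers, 1 fell, where 9.48% of all genes fell, and the sum of the 10 was 3369.5 to 8819.9 CPM at week 10, against 10070.8 to 12154.9 CPM at week 6. All the pathway genes named here had separate week 10 and week 6 values, and each kept its sign with TPM and with unscaled library sizes. At week 14, by contrast, 11 of the called pathway genes changed sign on the TPM scale, among them Gmds and Neu1.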

How the data were processed

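Polyadenylated RNA of 18 distal colon samples was read from both ends, per the labels' protocols. The tools FastQC and kallisto and the build mm10 are named in the submitters' processing notes, and versions are not given in the sources used here. The deposited gene table holds estimated counts (expected counts per gene symbol, held as whole numbers), and every row sums to at least 50. The authors' second gene table gives TPM for the same genes. The deposited transcript files of each library give estimated counts, TPM and lengths per transcript, per the file headers. Of these transcripts, 97.2% matched GENCODE annotation of GRCm38, which gave positions, transcript classes and lengths.

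Groups, ages, RIN, lipocalin and cage were taken from the labels. Counts were scaled by TMM and tested in edgeR 4.0.16 (quasi-likelihood F-test, filterByExpr, 16300 genes, 18 libraries in 1 fit of 6 group means), with two-sided p-values adjusted by Benjamini-Hochberg over all genes and a threshold of 0.05. CPM are TMM-scaled, without a prior count. SE are the unshrunken log2 fold change divided by the square root of F. TPM were tested with limma 3.58.1 on log2(TPM + 1), which understates changes of low genes. Alternatives used DESeq2 1.42.0, other scalings, filters, pseudocounts, weights, covariates and left-out libraries. The fit was also run on simulated data with 200 changed genes. The simulation gave all groups the same spread, whereas voom weights ran from 0.177 at week 14 to 3 in Il10KO mice at week 6. It therefore does not cover unequal spread between groups. Depth was 26495521 to 35497101 counts. Counting error, which was not separated from the spread, weighs most for the genes of lowest level (among them Chst5, Fut7, Galnt16 and B3galt1).

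The members and gene lists were chosen with earlier results of these data known. Named in the text for each comparison are up to 8 called members with the smallest p in each direction, Fut2, the largest changes and highest levels of each class, and up to 4 called genes per pathway list. St3gal2, Fut10, Galnt7 and B4galnt2 at week 10 fell outside the first of these and were named after their values were seen. Galnt17 was not used here. Some genes of these lists are not reported here by name.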

Additional observations from a re-analysis of the deposited data

How the results depend on the processing

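Replicate numbers did not pair the mice: correlations of same-numbered deviations ran from -0.246 to 0.237, and no comparison had all 3 above 0.1. With the replicate block, 16 members were called at week 10, 15 at week 14, 10 across ages, 1 at week 12 and 0 in the other comparisons, all within 1.5 times of the counts without it. Cage D held only week 8 replicate 3, which a cage term therefore drops.

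The following are counts of members called, with the cause not tested. The share of all genes called moved between fits as well, so these counts alone do not describe the family. At week 12 it was 1.85% in edgeR's fit of all libraries, 59.0% with the compared groups alone and 61.9% with voom weights. At week 14 it was 33.1% in edgeR's fit of all libraries and 60.0% on the log2(TPM + 1) scale. For most other fits, here and above, that share is not given. For genotype, voom weights gave 1. At week 10 (20), a cage factor gave 4, leaving out the 2 week 14 libraries of low RIN 31, log2(TPM + 1) 12, log2(TPM + 0.1) 4 and library size in place of TMM 9, and leaving out single libraries 4 to 24. At week 12 (1), RIN as a covariate gave 13, cage 0, no low-RIN libraries 19, the compared groups alone 30, log2(TPM + 0.1) 0, voom weights 32, library size 0, TMM-scaled TPM 2 and DESeq2 5, and leaving out single libraries 0 throughout. At week 14 (13), RIN, cage, no low-RIN libraries and the compared groups alone each gave 0, either TPM pseudocount 39, voom weights 2, library size 3, TMM-scaled TPM 22 and DESeq2 20, and leaving out single libraries 2 to 34. For week 12 against week 10 (0), RIN gave 8, no low-RIN libraries 11, voom weights 1 and DESeq2 8, and leaving out single libraries 0 to 1. Across ages (14), RIN gave 24, cage 0, no low-RIN libraries 25, the compared groups alone 7, log2(TPM + 1) 27, log2(TPM + 0.1) 23, voom weights 34, library size 5, TMM-scaled TPM 5 and DESeq2 22, and leaving out single libraries 5 to 41. Library size and TMM-scaled TPM were chosen after seeing the data.

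Signs turned for Fut2 by genotype (-0.01 without WT replicate 1, -0.05 without Il10KO replicate 2, and up to 0.12 without other libraries). At week 14 they turned with pseudocounts of 1 and 0.1 for B3galt6 (-0.14, -0.17), B3gnt5 (-0.22, -0.22), B4galt7 (-0.33, -0.36), C1galt1 (-0.37, -0.38), C1galt1c1 (-0.04, -0.05), Galnt3 (-0.02, -0.03), St3gal6 (-0.66, -0.66) and Fut2 (-0.23, -0.23). B4galt7 at week 14 was also -0.05 with RIN as a covariate and -0.11 without the low-RIN libraries.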
